A study of Mus musculus with 6 samples.

Results

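The genes described here are 45 mouse genes of ribosome biogenesis and RNA polymerase I (Pol I), out of 55487 genes in the deposited table. They were taken by symbol: the Nop, Utp, Polr1 and Rrp series, with the single genes Gar1, Nhp2, Naf1, Bop1, Pes1, Ncl, Npm1, Fbl, Dkc1, Nolc1, Wdr12, Rrs1 and Gnl3. The rule used no measured value, and 1 symbol of a pseudogene that would have fitted was left out. All 45 passed the filter on low counts. They lie on 17 chromosomes.

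Poly(A) RNA was sequenced from macrophages grown out of the bone marrow of female BALB/c mice (wild type, age 6 to 12 weeks) over 8 days, in medium of which 20% was conditioned by L929 fibroblasts. The cells of both groups were polarized to the M2 state with IL-4 and IL-13 (10 ng/mL each, 24 hours). The NP group (3 libraries) then received nanoparticles at 200 µg/mL for 24 hours, and the PBS group (3 libraries) received the vehicle. The particles are poly(lactide-co-glycolide) by the series title; the NP samples carry the treatment label PEMA, whose meaning the sources used here do not give. Nothing in the labels says that the 3 samples of a group came from separate cultures or animals, so a p-value here reflects the spread among these libraries, which may be technical.

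Ribosomes are built in the nucleolus. Pol I transcribes a long precursor rRNA, small nucleolar ribonucleoproteins (snoRNPs) guide its chemical modification, and large sets of assembly factors fold it, cut it and load ribosomal proteins onto it. The factors for the small and the large subunit act in separate particles, and their genes are commonly transcribed together in growing cells, where MYC is a well-known activator of them. The rRNA itself has no poly(A) tail, so these libraries measure the mRNAs of the machinery and not its product.

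Total counts were 60702163 to 69450411 in NP libraries and 41974957 to 56265590 in PBS libraries. PBS 2 and PBS 3 stood apart from the other libraries in the summed counts of olfactory and vomeronasal receptor genes: 9.62, 10.3 and 11.8 CPM (counts scaled to the library total) in NP 1 to 3, against 12.4, 136 and 150 CPM in PBS 1 to 3. Results are therefore also given for a fit of the 3 NP libraries against PBS 1 alone, with 2 residual degrees of freedom where the lone library is assumed to vary like the NP libraries. Of the 10 macrophage markers, 8 were lower and 1 higher in NP cells, and their summed level was 9860 to 11000 CPM in NP libraries and 13300 to 13500 CPM in PBS libraries, so the labelled cell type was present in both groups. Of 30 markers of dividing cells, 29 were lower in NP cells, with sums of 1380 to 1890 CPM in NP libraries and 2860 to 3040 CPM in PBS libraries. Markers of other cell types were low: the sums were 2.23 to 2.6 CPM in NP and 2.31 to 3.95 CPM in PBS libraries for T cells, and 0.901 to 1.14 and 0.666 to 0.835 CPM for neutrophils with Ly6g at 0. They were 2.24 to 2.75 CPM in NP and 2.7 to 3.38 CPM in PBS libraries for fibroblasts, and 0 to 0.0328 and 0 to 0.0476 CPM for mast cells and basophils with Cpa3 at 0. For 4 B cell genes (Ms4a1, Cd79a, Cd79b and Pax5) the sums were 0.0864, 0.0983 and 0.115 CPM in NP 1 to 3, against 0.124, 0.858 and 0.685 CPM in PBS 1 to 3, so PBS 2 and PBS 3 were again the high ones; the part of these genes in the results was not tested.

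Of the 45 ribosome biogenesis genes, 34 rose in macrophages given nanoparticles and 0 fell at an adjusted p under 0.05 (limma voom, Benjamini-Hochberg over all 14478 tested genes). Among all tested genes 19.8% were called higher and 21.4% lower, against 75.6% and 0% of the 45 genes. Among the 9063 tested genes with a mean of at least 9 CPM, a level that every member reached, 26.3% were called higher and 25.4% lower. The changes were small: the called genes were 1.09-fold (Utp6, Fbl) to 1.46-fold (Nop16) higher in NP cells, and no gene reached 2-fold. The median log2 fold change of the 45 genes, called or not, was 0.198, beside −0.003 for all tested genes. In 37 of the 45 genes every NP library lay above every PBS library, a separation that 26.5% of all tested genes showed, and in 0 genes was it the other way round.

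The shift was present in each NP library. Relative to the mean of the PBS libraries, the 45 genes had a median log2 difference of 0.226, 0.182 and 0.190 in NP 1 to 3, against 0.009, 0.017 and −0.022 in PBS 1 to 3. Together they took 0.436%, 0.431% and 0.434% of all counts in NP 1 to 3, against 0.394%, 0.399% and 0.382% in PBS 1 to 3, so the 2 groups did not overlap. Against PBS 1 alone 18 of the 45 genes were called higher and 0 lower, where 7.95% of the tested genes were called higher and 11.8% lower, and the median was 0.168. In bulk RNA a change in the make-up of the culture cannot be told apart from a change in the RNA of each cell. Markers of dividing cells moved the opposite way in the same libraries, and their part in these results was not tested.

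**Figure D1:**
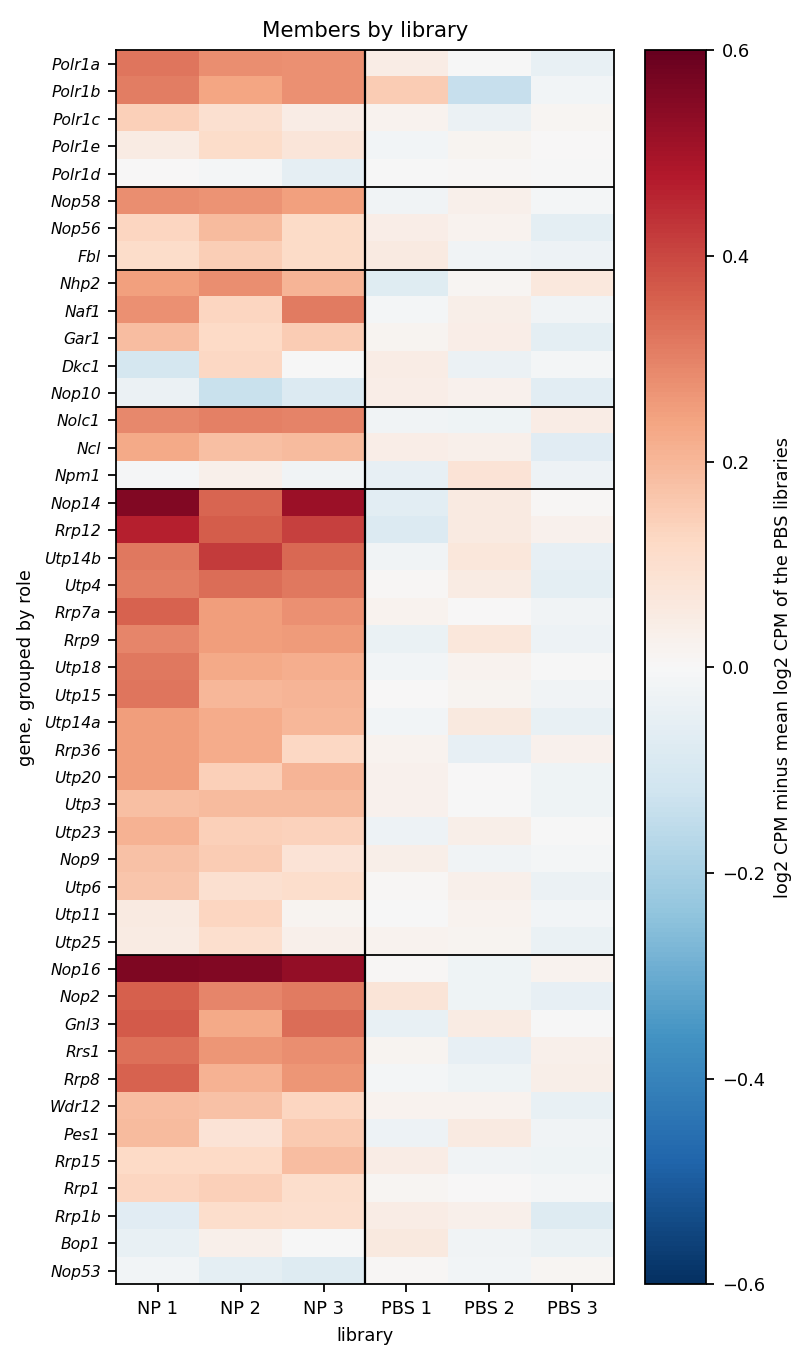
Level of each of the 45 genes in each of the 6 libraries, drawn as log2 CPM minus the mean log2 CPM of the PBS libraries, with red for higher and blue for lower; genes are grouped by role and horizontal lines divide the roles. The 3 NP columns are mostly red, with medians of 0.226, 0.182 and 0.190, and the 3 PBS columns stay near 0.

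Counts divided by the length of all annotated exons (TPM) gave an order of levels between genes that depends on this length. Ncl had 928 CPM in NP cells over 10188 exonic bases, and Npm1 had 425 CPM over 2665. Mean levels over the 6 libraries ran from 8.2 to 536 TPM, with a median of 52.6 TPM. Npm1, which encodes the nucleolar chaperone nucleophosmin, stood at 531 ± 7.52 TPM in NP cells and 542 ± 27.8 TPM in PBS cells (SD, n = 3 each). Ncl, which encodes the nucleolar RNA-binding protein nucleolin, followed with 303 ± 4.54 TPM in NP cells and 269 ± 13.4 TPM in PBS cells. The next were Utp3, a processome component also known as SAS10, at 259 ± 3.27 TPM in NP cells and 232 ± 6.49 TPM in PBS cells and Rrp1, a large-subunit factor, at 240.4 ± 1.66 TPM in NP cells and 225 ± 4.09 TPM in PBS cells. The lowest was Polr1e, a peripheral Pol I subunit, at 8.34 ± 0.188 TPM in NP cells and 8.06 ± 0.0938 TPM in PBS cells.

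Of the 5 Pol I subunits named by symbol, the genes of the 2 largest, catalytic subunits rose and the other 3 did not pass the test. Polr1a (ENSMUSG00000049553, chr6:71909053-71984935, plus strand), the gene of the largest subunit, had 73.1, 70.8 and 70.7 CPM in NP 1 to 3, against 60.3, 58.3 and 56.7 CPM in PBS 1 to 3. Polr1b, the gene of the second-largest subunit, had 21.03, 20.1 and 20.6 CPM in NP and 18.9, 15.5 and 16.9 CPM in PBS libraries. For both genes the lowest NP library was above the highest PBS library, but PBS 1 came close to the NP range in Polr1b. The log2 fold change was 0.29 ± 0.035 (SE) for Polr1a, with an adjusted p of 0.000222 in limma voom. For Polr1b it was 0.26 ± 0.067 with an adjusted p of 0.0119, and the call of Polr1b was lost without NP 1 (0.0519), NP 3 (0.0574) or PBS 3 (0.0506) and against PBS 1 alone (0.285).

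The other 3 subunits were not called. Polr1c, a subunit that Pol I shares with RNA polymerase III (Pol III), had 24.5, 23.7 and 22.9 CPM in NP and 22.5, 21.7 and 22.4 CPM in PBS libraries. Polr1e had 9.59, 9.99 and 9.74 CPM in NP and 9.15, 9.36 and 9.27 CPM in PBS libraries. In both the NP libraries lay just above the PBS libraries without passing the test, at adjusted p of 0.125 and 0.308. Polr1d, which Pol I also shares with Pol III, had 48.1, 47.7 and 46.2 CPM in NP and 47.97, 48.2 and 47.9 CPM in PBS libraries, so that the groups overlapped (log2 fold change −0.02 ± 0.033, adjusted p = 0.641).

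Further Pol I genes were read from a list of 22 that carries initiation factors, regulators and the subunits filed under older symbols or under Polr2 symbols. Of these, 6 were higher (27.3%) and 2 lower (9.09%) in NP cells, with a median log2 fold change of 0.033. The shares were 19.8% and 21.4% among all tested genes, and 26.3% and 25.4% among those with a mean of at least 9 CPM. The share called higher was thus close to that of genes at this level. Rrn3, the initiation factor that ties Pol I to the promoter-bound factors, had 68.7, 69.3 and 69.3 CPM in NP and 62.1, 59.5 and 59.6 CPM in PBS libraries. Taf1a, a subunit of the promoter selectivity factor, had 18.6, 15.1 and 15.9 CPM in NP and 11.8, 12.4 and 11.8 CPM in PBS libraries. In both genes the groups were separate, with log2 fold changes of 0.19 ± 0.032 and 0.47 ± 0.085 (adjusted p = 0.00121 and 0.00207). The genes that fell were Tcof1, which encodes the nucleolar protein treacle, and Top2b, a DNA topoisomerase. Tcof1 had 72.2 ± 6.05 CPM in NP cells against 82.1 ± 3.46 CPM in PBS cells (SD, n = 3 each). Its groups overlapped, with 79.2 CPM in NP 2 and 78.3 CPM in PBS 2. Top2b had 109 ± 2.02 CPM in NP cells against 123 ± 5.57 CPM in PBS cells. Ubtf, the upstream binding factor of rDNA, was not called, at 150.0 ± 2.23 CPM in NP cells against 145 ± 2.1 CPM in PBS cells (adjusted p = 0.192). Of the subunits under older symbols, Cd3eap was called higher with a log2 fold change of 0.15 ± 0.038, while Twistnb (−0.01 ± 0.047) and Znrd1 (−0.08 ± 0.081) were not called. Ubtf, Cd3eap, Twistnb and Znrd1 were picked for mention after their values were seen. The call of Tcof1 was lost without NP 1 (0.148), NP 3 (0.165), PBS 1 (0.105) or PBS 3 (0.103). It was also lost with no low-count filter (0.109) and with replicate number as a further term (0.0501). Against PBS 1 alone the log2 fold change of Tcof1 was −0.21. The call of Top2b was lost without NP 3 (0.0657). The list had 0 genes called higher and 1 lower against PBS 1 alone, and its median was −0.001 with library totals in place of TMM factors.

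Of the box C/D snoRNP core, the 3 genes taken by symbol all rose. Box C/D particles place methyl groups on the ribose of rRNA; fibrillarin (Fbl) is the methyltransferase, and Nop56 and Nop58 form the scaffold. Nop58 (ENSMUSG00000026020, chr1:59684971-59719044, plus strand) had 126, 125 and 123 CPM in NP and 102, 106 and 103 CPM in PBS libraries. Nop56 had 104, 109 and 103 CPM in NP and 98.03, 96.7 and 91.5 CPM in PBS libraries. Fbl had 102, 104 and 102 CPM in NP and 97.5, 92.7 and 92.03 CPM in PBS libraries. The NP libraries were the higher ones in all 3 genes, with the widest gap in Nop58. The log2 fold changes were 0.26 ± 0.03 for Nop58, 0.15 ± 0.037 for Nop56 and 0.12 ± 0.033 for Fbl, with adjusted p of 0.000163, 0.0116 and 0.0147. Snu13, the gene of a further core protein, was picked after its values were seen and is in the snoRNP assembly list below. It had 61.5, 63.4 and 60.4 CPM in NP and 61.9, 59.8 and 60.9 CPM in PBS libraries. The groups overlapped, and Snu13 was not called (log2 fold change 0.0204 ± 0.0335, adjusted p = 0.662). The call of Fbl was lost without PBS 2 (0.0596), without PBS 3 (0.062), without NP 2 and PBS 2 together (0.085) and with library totals only (0.0588), and against PBS 1 alone the calls of Fbl (0.354) and Nop56 (0.214) were lost.

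In the box H/ACA snoRNP, which turns uridines of rRNA into pseudouridines, 3 of 5 genes rose and the gene of the enzyme itself did not pass the test. Among all tested genes 19.8% were called higher. Nhp2, a core protein, had 66.1, 67.7 and 64.3 CPM in NP and 52.9, 56.1 and 58.3 CPM in PBS libraries. Naf1, the assembly factor that Gar1 replaces in the mature particle, had 23.8, 21.6 and 24.5 CPM in NP and 19.6, 20.2 and 19.4 CPM in PBS libraries. Gar1 had 39.3, 37.6 and 38.5 CPM in NP and 35.05, 35.6 and 33.3 CPM in PBS libraries. In these genes every NP library was above every PBS library, with log2 fold changes of 0.25 ± 0.042, 0.24 ± 0.056 and 0.15 ± 0.04 and adjusted p of 0.00148, 0.0077 and 0.0124. Dkc1, the pseudouridine synthase dyskerin, had 32.6, 38.2 and 34.96 CPM in NP and 36.2, 34.2 and 34.8 CPM in PBS libraries. Nop10, the smallest core protein, had 18.8, 17.5 and 18.1 CPM in NP and 19.8, 19.6 and 18.4 CPM in PBS libraries. Both overlapped between the groups, and neither passed the test (adjusted p = 0.999 for Dkc1 and 0.221 for Nop10). The calls of Naf1 (0.107) and Gar1 (0.155) were lost against PBS 1 alone.

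A list of 15 tested snoRNP assembly genes had 7 called higher (46.7%) and 1 lower (6.67%), with a median of 0.089. For all tested genes the shares were 19.8% and 21.4%, and for those with a mean of at least 9 CPM 26.3% and 25.4%. Smn1, the survival motor neuron gene, had 28.6 ± 0.564 CPM in NP cells against 23.8 ± 0.862 CPM in PBS cells (SD, n = 3 each), and Znhit6, a box C/D assembly factor, had 27.6 ± 0.54 CPM in NP cells against 23.4 ± 0.947 CPM in PBS cells. Their log2 fold changes were 0.27 ± 0.043 and 0.24 ± 0.044 (adjusted p = 0.000979 and 0.0024). Pih1d1, a subunit of the R2TP co-chaperone that assembles these particles, fell to 27.6 ± 1.32 CPM in NP cells against 31.99 ± 1.5 CPM in PBS cells (log2 fold change −0.22 ± 0.05, adjusted p = 0.00762). The call of Pih1d1 was lost without NP 3 (0.0513) and with no low-count filter (0.0524). Of the list 4 genes were called higher without PBS 3, 6 higher and 2 lower with library totals only, and 1 higher and 0 lower against PBS 1 alone.

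Several of these genes carry snoRNA genes within them. By the GENCODE M21 annotation, 6 of the 45 genes contain 17 snoRNA genes: 5 in Nop56, 4 in Nop58, 3 each in Gnl3 and Ncl, and 1 each in Dkc1 and Nop53. The first 4 of these hosts were called higher and the last 2 were not called. Poly(A) libraries do not measure the mature snoRNAs.

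Among the 3 nucleolar chaperones, Nolc1 and Ncl rose, and Npm1, whose level per exonic length (TPM) was the highest of the 45, did not pass the test. Nolc1, which encodes a phosphoprotein that accompanies snoRNPs, had 150.4, 152 and 152 CPM in NP and 122, 121 and 127 CPM in PBS libraries. Ncl had 945, 916 and 922 CPM in NP and 829.7, 825 and 771 CPM in PBS libraries. Npm1 had 423, 434 and 419 CPM in NP and 410.3, 449 and 417 CPM in PBS libraries. The groups were far apart in Nolc1, separate in Ncl and overlapping in Npm1, whose lowest and highest libraries were both PBS. The log2 fold change was 0.30 ± 0.031 for Nolc1 and 0.20 ± 0.036 for Ncl, with adjusted p of 0.000104 and 0.00212, against 0.999 for Npm1. The call of Ncl was lost against PBS 1 alone (0.0606).

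**Figure D2:**
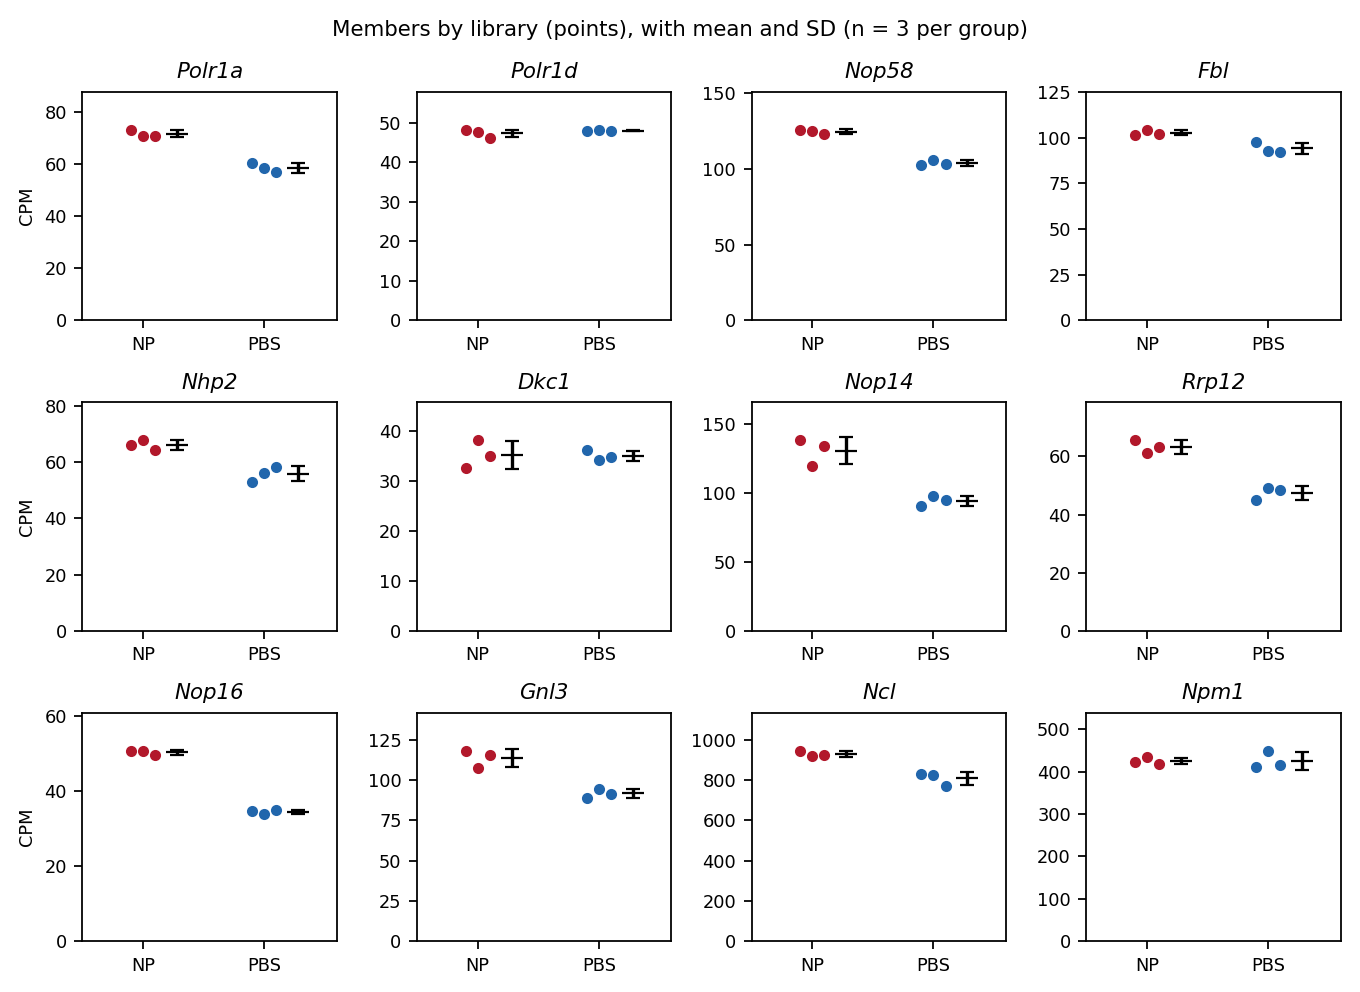
CPM of 12 of the genes in each library (points), NP left and PBS right, with the mean and SD of the 3 libraries of a group beside them; each axis starts at 0. The points of the groups are separate in Polr1a, Nop58, Fbl, Nhp2, Nop14, Rrp12, Nop16, Gnl3 and Ncl, and overlap in Polr1d, Dkc1 and Npm1.

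Of the small-subunit factors 15 of 17 were called higher (88.2%), beside 19.8% of all tested genes. The 17 factors had log2 fold changes from 0.060 to 0.473 around a median of 0.225. They belong to the processome, the particle that forms on the front part of the precursor rRNA around the U3 snoRNP. Nop14 (ENSMUSG00000036693, chr5:34638536-34660148, minus strand), a processome component, had 138, 120.0 and 134 CPM in NP and 90.3, 97.7 and 94.8 CPM in PBS libraries. Rrp12, which is known from yeast as a factor for export of the subunits, had 65.6, 61.1 and 63.1 CPM in NP and 44.9, 49.2 and 48.3 CPM in PBS libraries. Utp4, a member of the early-acting UTP-A complex, had 45.6, 46.6 and 45.8 CPM in NP and 37.1, 38.2 and 35.4 CPM in PBS libraries. In all 3 genes the lowest NP library was well above the highest PBS library, and in Nop14 and Rrp12 NP 2 was the lowest of the NP libraries. The log2 fold changes were 0.47 ± 0.054, 0.42 ± 0.044 and 0.32 ± 0.038, with adjusted p of 0.000168, 0.000113 and 0.000202.

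Utp14b and its X-linked counterpart Utp14a are copies of one another: Utp14b is a retrogene that lies within Acsl3. Utp14b had 22.2, 23.9 and 22.7 CPM in NP and 17.6, 18.8 and 17.3 CPM in PBS libraries (log2 fold change 0.36 ± 0.051, adjusted p = 0.000482). Utp14a had 87.4, 85.6 and 84.3 CPM in NP and 72.7, 76.4 and 71.3 CPM in PBS libraries (0.23 ± 0.035, adjusted p = 0.000925). The groups were separate in both genes, and the split of shared reads between the copies is uncertain. Utp14b also shared 3.18% of its exonic bases with Acsl3 on the same strand.

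The other processome genes called higher were Rrp7a, Rrp9, Utp18, Utp15, Rrp36, Utp20, Utp3, Utp23, Nop9 and Utp6, with log2 fold changes between 0.29 ± 0.035 for Rrp7a and 0.12 ± 0.034 for Utp6. Rrp9 encodes a protein of the U3 snoRNP, and Utp18 and Utp6 belong to the UTP-B complex. Utp11 and Utp25 were not called, with 59.5 ± 2.39 CPM in NP cells against 56.8 ± 0.734 CPM in PBS cells for Utp11 and 29.4 ± 0.72 CPM in NP cells against 28.2 ± 0.642 CPM in PBS cells for Utp25 (SD, n = 3 each). The calls at the lower end were less stable: leaving out PBS 3 (adjusted p = 0.0552), PBS 2 (0.0586) or both NP 2 and PBS 2 (0.0797) ended that of Nop9, and that of Utp6 was lost without PBS 3 (0.0514) and with library totals only (0.0546). Against PBS 1 alone 9 of the 17 were called higher. Where genes overlap on opposite strands, reads cannot be told apart without the strand setting, which is not given in the sources used here. Nop9 shared 29.9% of its exonic bases with the other strand, where Cideb lies, Rrp7a 12.5%, and Utp14a and Utp23 11.5% each.

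A list of 54 further genes filed under the small subunit moved the same way. Of these 39 were called higher (72.2%) and 0 lower, with a median log2 fold change of 0.180. Among all tested genes 19.8% were called higher and 21.4% lower. The list was filed by general knowledge, and some of its genes, such as Sdad1 and Mettl18, may not belong to the small subunit. Nob1, which was called higher, is in this list and also in the large-subunit list below. Pno1, which encodes a late assembly factor of the small subunit, had 93.9, 86.6 and 91.2 CPM in NP and 68.4, 68.7 and 68.2 CPM in PBS libraries. Tbl3, a UTP-B protein, had 51.5, 49.1 and 47.4 CPM in NP and 38.5, 37.8 and 38.6 CPM in PBS libraries. The groups were separate in both genes, with log2 fold changes of 0.40 ± 0.036 and 0.36 ± 0.04 (adjusted p = 5.11e-05 and 0.000134). Of the 54 genes 16 were called higher against PBS 1 alone, and the median was 0.185.

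Of the 12 large-subunit factors 9 rose. Nop16 (ENSMUSG00000025869, chr13:54584185-54590090, minus strand), a nucleolar factor of large-subunit assembly, had 50.8, 50.6 and 49.6 CPM in NP and 34.6, 33.8 and 34.9 CPM in PBS libraries. This was the largest change of the 45 genes, with a log2 fold change of 0.55 ± 0.034 and an adjusted p of 1.15e-05, and the libraries of each group lay close together. Nop2, a methyltransferase of large-subunit rRNA, had 75.8, 72.5 and 73.4 CPM in NP and 62.4, 58.2 and 57.1 CPM in PBS libraries. Gnl3, the GTPase nucleostemin, had 118, 108 and 116 CPM in NP and 88.99, 94.9 and 91.6 CPM in PBS libraries. Rrs1, which helps bring the small ribosomal RNA of the large subunit into the particle, had 127, 121 and 123 CPM in NP and 102, 97.8 and 103 CPM in PBS libraries. Every NP library was above every PBS library in these 3 genes, with log2 fold changes of 0.32 ± 0.04, 0.31 ± 0.043 and 0.29 ± 0.034 and adjusted p of 0.000281, 0.000435 and 0.000189.

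The PeBoW complex, a trio of proteins needed for processing of large-subunit rRNA, was split. Pes1 had 142, 131 and 138 CPM in NP and 121, 129 and 122 CPM in PBS libraries. Wdr12 had 41.7, 41.5 and 40.2 CPM in NP and 37.3, 37.3 and 35.7 CPM in PBS libraries. Bop1 had 46.1, 48.6 and 47.5 CPM in NP and 49.6, 46.96 and 46.3 CPM in PBS libraries. The NP libraries were the higher ones in Pes1 and Wdr12, in Pes1 by a narrow margin, and the groups overlapped in Bop1. Pes1 and Wdr12 were called, with log2 fold changes of 0.14 ± 0.039 and 0.16 ± 0.037 (adjusted p = 0.0146 and 0.00633), and Bop1 was not (adjusted p = 0.879). Whether Bop1 differs from its partners was not tested. The call of Pes1 was lost without NP 3 (0.0637) and against PBS 1 alone (0.0767), and that of Wdr12 against PBS 1 alone (0.126).

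Rrp8, another methyltransferase of large-subunit rRNA, Rrp15 and Rrp1 were also called higher, with 46.9 ± 2.38 CPM in NP cells against 38.7 ± 0.846 CPM in PBS cells for Rrp8, 23.3 ± 0.627 CPM in NP cells against 21.1 ± 0.589 CPM in PBS cells for Rrp15 and 241 ± 3.3 CPM in NP cells against 221 ± 1.88 CPM in PBS cells for Rrp1 (SD, n = 3 each). The call of Rrp15, at an adjusted p of 0.0305, was lost without NP 3 (0.0899), PBS 2 (0.1) or PBS 3 (0.108), without NP 2 and PBS 2 together (0.0823), with no low-count filter (0.0866), with library totals only (0.0994) and against PBS 1 alone (0.399). Nop53, which links the pre-ribosome to the exosome, had 138 ± 2.94 CPM in NP cells against 143 ± 1.57 CPM in PBS cells, and Rrp1b had 23.1 ± 1.55 CPM in NP cells against 22.3 ± 1.03 CPM in PBS cells. Neither was called (adjusted p = 0.203 and 0.594), but with library totals in place of TMM factors Nop53 was called lower (log2 fold change −0.0859, adjusted p = 0.0307). Of the 12 large-subunit factors 5 were called higher against PBS 1 alone.

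Of 60 further genes filed under large-subunit assembly 52 were called higher (86.7%) and 0 lower, with a median log2 fold change of 0.192. Among all tested genes the shares were 19.8% and 21.4%. This list shares Nob1 with the small-subunit list, and Nob1 and Rbm19 may belong to the small subunit. Mybbp1a, which encodes a MYB-binding nucleolar protein, had 244, 239 and 237 CPM in NP and 189, 195 and 196 CPM in PBS libraries. Rbm19, an RNA-binding nucleolar protein, had 56.7, 56.6 and 55.7 CPM in NP and 45.04, 43.96 and 45.7 CPM in PBS libraries. Both genes were separate between the groups, with log2 fold changes of 0.31 ± 0.03 and 0.33 ± 0.033 (adjusted p = 6.64e-05 and 8.13e-05). Against PBS 1 alone 25 of the 60 were called higher, and the median was 0.187.

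**Figure D3:**
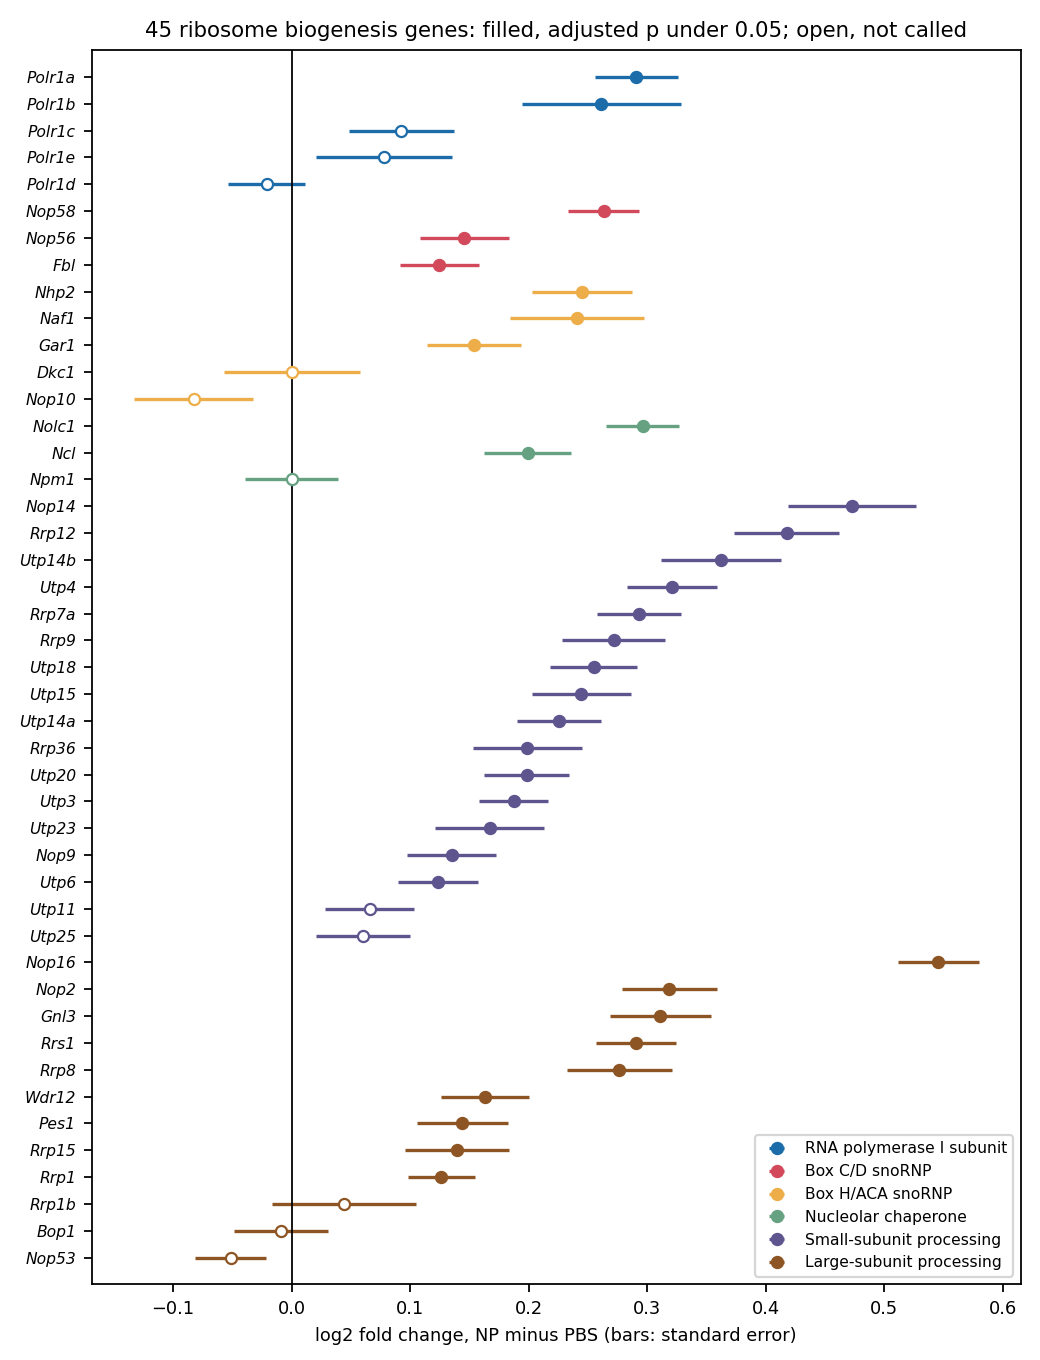
Log2 fold change (NP minus PBS) of the 45 genes with its standard error, grouped by role; filled points were called at an adjusted p under 0.05 and open points were not. The 34 filled points all lie to the right of 0, up to 0.55 for Nop16, and the 11 open points lie around 0.

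Lists of neighbouring processes showed smaller median shifts than the members, with calls in both directions. Of 22 Pol III genes 8 were called higher (36.4%) and 2 lower (9.09%), with a median of 0.087. The shares were 19.8% and 21.4% among all tested genes, and 26.3% and 25.4% among those with a mean of at least 9 CPM. Polr3d rose to 42.2 ± 2.06 CPM in NP cells against 31.8 ± 0.274 CPM in PBS cells (SD, n = 3 each). Crcp rose to 63.1 ± 3.38 CPM in NP cells against 53.2 ± 1.13 CPM in PBS cells. Polr3gl fell to 18.04 ± 1.17 CPM in NP cells against 20.4 ± 1.22 CPM in PBS cells and Gtf3c2 to 66.8 ± 1.81 CPM in NP cells against 71.3 ± 0.953 CPM in PBS cells. Adjusted p was 0.000124 for Polr3d, 0.00177 for Crcp, 0.0464 for Polr3gl and 0.0445 for Gtf3c2. Neither lower call was stable: Gtf3c2 lost it without each single library in turn (0.0538 to 0.17), Polr3gl without each one but NP 3 (0.0679 to 0.195), and both with upper-quartile factors or no low-count filter. With library totals in place of TMM factors the list had 3 genes called higher and 5 lower, and without PBS 3 it had 3 higher and 0 lower. Of 32 genes of the exosome, the nuclease complex that trims rRNA, and of other rRNA nucleases, 9 were called higher and 7 lower (median 0.011). These shares of 28.1% and 21.9% were close to those of tested genes with at least 9 CPM, 26.3% and 25.4%. Among all tested genes they were 19.8% and 21.4%. Rpp25, a subunit of ribonucleases P and MRP, rose at a low level, with 0.874 ± 0.0821 CPM in NP cells against 0.341 ± 0.0636 CPM in PBS cells (log2 fold change 1.35 ± 0.23, adjusted p = 0.00141). Rexo4, a nucleolar exonuclease, rose to 68.6 ± 0.765 CPM in NP cells against 61.6 ± 0.0572 CPM in PBS cells, while Eri1, an exonuclease of rRNA and histone mRNA ends, fell to 63.9 ± 2.44 CPM in NP cells against 73.4 ± 0.834 CPM in PBS cells, and Tent4a, a poly(A) polymerase, fell to 35.6 ± 1.35 CPM in NP cells against 41.6 ± 1.15 CPM in PBS cells. Adjusted p was 0.00255 for Rexo4, 0.00192 for Eri1 and 0.00203 for Tent4a. Against PBS 1 alone, 3 Pol III genes were called higher and 0 lower, and 2 exosome and nuclease genes were called higher and 3 lower. With library totals only, 8 exosome and nuclease genes were called higher and 8 lower (median −0.024), and with no low-count filter 4 were called lower.

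Myc, the activator named above, had 46.3, 50.7 and 49.7 CPM in NP and 48.3, 49.6 and 50.7 CPM in PBS libraries. The groups overlapped, and Myc was not called (log2 fold change −0.02 ± 0.043, adjusted p = 0.737). Among all tested genes 19.8% were called higher and 21.4% lower, and among those with a mean of at least 9 CPM 26.3% and 25.4%. Of the 12 tested genes of the MYC network 5 were called higher (41.7%) and 3 lower (25.0%). Those that fell included the repressors Mxd4, with 54.9 ± 0.543 CPM in NP cells against 77.99 ± 1.94 CPM in PBS cells (log2 fold change −0.51 ± 0.032), and Mxd3, with 1.44 ± 0.469 CPM in NP cells against 4.88 ± 0.33 CPM in PBS cells (−1.82 ± 0.18). Those that rose included Mga, with 199 ± 12.96 CPM in NP cells against 159 ± 7.41 CPM in PBS cells (0.32 ± 0.051), and Mlx, with 42.9 ± 1.16 CPM in NP cells against 35.2 ± 1.22 CPM in PBS cells (0.29 ± 0.04), both of them partners in the same family of dimers (SD, n = 3 each). Adjusted p was 1.19e-05 for Mxd4, 8.16e-05 for Mxd3, 0.00101 for Mga and 0.000494 for Mlx. Other repressors of the list rose, and were picked after their values were seen: Mnt, with 113 ± 4.65 CPM in NP cells against 98.5 ± 1.28 CPM in PBS cells (0.20 ± 0.036, adjusted p = 0.00201), and Mxi1, with 33.3 ± 0.972 CPM in NP cells against 30.5 ± 0.757 CPM in PBS cells (0.13 ± 0.04, adjusted p = 0.0301). The list had 3 genes called higher with library totals only, without NP 1, without PBS 2 and without PBS 3, and 3 higher and 2 lower against PBS 1 alone. Among the calls lost was that of Mxi1, without NP 1 (0.0681), NP 3 (0.0629), PBS 2 (0.102) or PBS 3 (0.0553) and with library totals only (0.0784).

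MYC and its relatives bind the E-box CACGTG, which reads the same on both strands. In RefSeq promoter windows of GRCm38.p6, which run from 250 bases before to 50 bases after each start site, 8 of the 35 members with a window held this motif (22.9%), against 11.9% of 10316 tested genes and 8.09% of 27025 genes with a window. The members with it were Nop2, Pes1, Rrp7a, Utp4, Utp14b, Utp18, Utp20 and Utp25, of which Utp25 alone was not called. The motif was held by 7 of 28 members called higher (25.0%) and 1 of 7 not called (14.3%). A match is a description of the sequence and not a binding site. The stretches below are shown because in these genes, all of them called higher, the motif lies upstream of both the RefSeq and the GENCODE start. They are given 5′ to 3′ on the strand of the gene, in GRCm38 coordinates, with the motif in capitals.
Nop2 (chr6:125131793-125131858, plus strand): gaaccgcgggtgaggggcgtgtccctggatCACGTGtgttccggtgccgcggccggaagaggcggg
Utp18 (chr11:93885767-93885816, minus strand): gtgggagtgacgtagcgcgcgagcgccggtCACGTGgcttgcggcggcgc
Rrp7a (chr15:83122974-83123039, minus strand): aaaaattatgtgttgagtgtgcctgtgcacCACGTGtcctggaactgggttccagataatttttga
The first base of the motif lies 60 bases before the RefSeq start site in Nop2, 20 bases in Utp18 and 208 bases in Rrp7a. Nop2 rose by a log2 fold change of 0.32 ± 0.04, Utp18 by 0.25 ± 0.036 and Rrp7a by 0.29 ± 0.035.

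A list of 11 genes was tied to nucleolar stress, the response in which unassembled ribosomal proteins restrain MDM2 and so free p53. The shares called lower and higher were 21.4% and 19.8% among all tested genes. They were 25.4% and 26.3% among those with a mean of at least 9 CPM. Of the 11 genes 6 were called lower (54.5%) and 2 higher (18.2%), with a median of −0.146. The list mixes regulators and targets of p53 with ribosomal proteins, so its median gives no direction for the response. The lower ones included Rpl5 and Rpl11, which are counted again among the ribosomal proteins below. They also included Cdkn2a (log2 fold change −0.51, adjusted p = 0.00408) and Trp53, the gene of p53 (−0.17, adjusted p = 0.00614), picked after their values were seen. Mdm2, itself a target of p53, rose to 340.4 ± 6.67 CPM in NP cells against 254 ± 6.12 CPM in PBS cells (log2 fold change 0.43 ± 0.032, adjusted p = 2.26e-05), and the other gene called higher was Mybbp1a, which is also in the large-subunit list. Other p53 targets of the list were lower or not called: Zmat3 fell to 55.6 ± 0.466 CPM in NP cells against 67.2 ± 1.33 CPM in PBS cells, and Cdkn1a fell to 239 ± 5.67 CPM in NP cells against 268 ± 3.99 CPM in PBS cells (SD, n = 3 each). Their log2 fold changes were −0.27 ± 0.031 and −0.17 ± 0.031, with adjusted p of 0.000168 and 0.00241. Ppm1d, another p53 target, picked after its values were seen, was not called, with 22.3 ± 0.337 CPM in NP cells against 22.7 ± 0.684 CPM in PBS cells (−0.02 ± 0.042, adjusted p = 0.715). The fit against PBS 1 alone called 2 of these genes higher and 3 lower.

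Genes of the ribosomal proteins themselves were lower. Of 79 tested genes of cytosolic ribosomal proteins 61 were called lower in NP cells and 0 higher, with a median log2 fold change of −0.184, beside 0.198 for the 45 biogenesis genes. In 67 of the 79 every NP library lay below every PBS library, as in 26.8% of all tested genes. Rpl5 and Rpl11, which enter the large subunit together with its small rRNA, were picked after their values were seen: Rpl5 fell to 279 ± 10.2 CPM in NP cells against 309 ± 9.84 CPM in PBS cells, and Rpl11 fell to 347 ± 11.9 CPM in NP cells against 383 ± 11.3 CPM in PBS cells (adjusted p = 0.0117 and 0.0105). Without NP 3, 40 of the 79 were called lower and both of these calls were lost (0.0815 and 0.0775), and that of Rpl5 also without NP 1 (0.0571). The fit against PBS 1 alone called 20 of the 79 lower and 0 higher, with a median of −0.134. Genes of ribosomal proteins have many near-identical pseudogenes, so the values of single genes are uncertain.

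**Figure D4:**
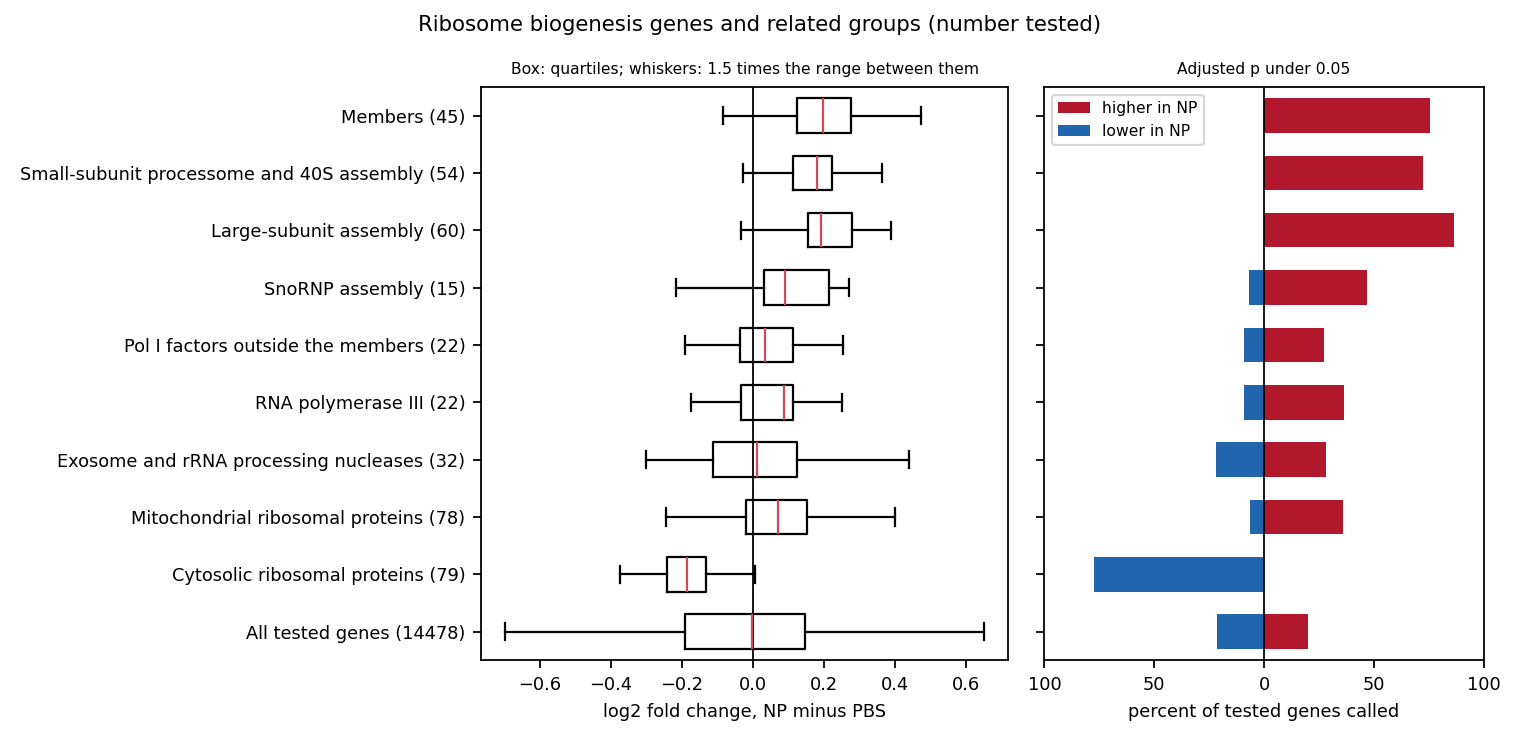
Left, log2 fold changes (NP minus PBS) of the 45 members, 6 lists of related processes, mitochondrial and cytosolic ribosomal proteins and all tested genes; boxes span the quartiles with the median as a line, and whiskers are as stated above the panel. Right, percent of the tested genes in each group called higher (red) or lower (blue) in NP cells: 75.6% and 0% for the members, 0% and 77.2% for cytosolic ribosomal proteins, and 19.8% and 21.4% for all tested genes.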

How the data were processed

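The table used here holds the expected counts that the authors deposited, 1 column a library, in whole numbers and unscaled for depth. Tools listed in the submitters' processing notes, with no role for each, are RSEM 1.3.3, STAR 2.7.8a, cutadapt 2.3, MultiQC 1.7 and FastQC 0.11.8; the build is GRCm38. RSEM divides reads that match several genes. Gene positions and exonic lengths came from GENCODE M21.

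All 55487 genes were filtered (at least 0.171 CPM in 3 libraries and 15 counts in total), and 14478 were fitted by voom of limma 3.58.1 (R 4.3.3), with group as the only term and TMM factors of 0.979 to 1.02. A gene was called at a Benjamini-Hochberg adjusted p under 0.05. Log2 fold changes are NP minus PBS. The layout of the table kept its unit from being checked automatically, so edgeR and DESeq2 were not run. CPM of single genes uses TMM-scaled sizes of the tested genes; marker sums and shares use library totals, where 3 counts equal 0.0432 to 0.0715 CPM. No 2 libraries of a group agreed within sampling noise.

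Genes given in every library were a panel by role, the 6 largest called changes outside it, Myc, Snu13, and Utp14a beside its copy Utp14b. In each list up to 2 called genes per direction with the smallest p were named, some of them in every library. Other list genes are marked. The members and lists were chosen with earlier results of these data known. Scalings, filters, tests, a replicate block and left-out libraries were varied; the level of 9 CPM was chosen after seeing the data. The B cell genes were set out after seeing the data, and 1 further marker list is not reported here.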

Additional observations from a re-analysis of the deposited data

How the results depend on the processing

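Of the 34 genes called higher, 18 kept the call under all 16 alternatives, 31 under each other scaling and 28 without each single library. The count of members called higher stayed between 29 and 34 when 1 library was left out, and was 31 with library totals only. Against PBS 1 as the only PBS library it was 18, where all genes had 1197 calls higher and 1775 lower, the pathway lists together 51 higher and 9 lower (126 and 21 with all libraries), and the members a median of 0.168; fewer samples and fewer residual degrees of freedom enter that fit. Members called lower numbered 1 with library totals only (Nop53) and 0 under every other alternative. The members' median was 0.164 with library totals only and 0.176 to 0.221 with 1 library left out. With 1 library left out, all genes had 1975 to 3850 calls lower and 2102 to 2971 higher, and the lists 12 to 19 lower and 103 to 126 higher, with both lowest counts of lower calls without NP 3; the lists had 12 lower with no filter on low counts, where more genes were tested.

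Same-numbered libraries correlated at −0.0144, −0.124 and −0.141 in their deviations from the group means, and differently numbered ones at −0.0288 to 0.163. Deviations from means of 3 libraries cannot show whether the samples were paired. With the replicate block 32 members were called higher and 0 lower, and Rrp15 (adjusted p = 0.0778) and Utp23 (0.0532) lost the call. The members' median level in NP cells was 51.7 TPM by all exonic bases and 46.6 TPM by the longest transcript.

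The lowest count of a member in a library was 399 (Polr1e in PBS 2), so no member was near the limit of 3 counts. edgeR and DESeq2 were not run.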

Other observations

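Mitochondrial ribosomal proteins build the separate ribosome of the mitochondrion. Of their 78 tested genes 28 were called higher (35.9%) and 5 lower (6.41%) in NP cells. The shares were 19.8% and 21.4% among all tested genes, and 26.3% and 25.4% among those with a mean of at least 9 CPM. The median log2 fold change of the 78 genes was 0.070. With library totals in place of TMM factors 20 were called higher and 7 lower. Lower calls numbered 1 without NP 1, NP 3, PBS 1 or PBS 3 and 2 without PBS 2, and against PBS 1 alone 11 were called higher and 1 lower. Within the NP group, 28 of the 45 biogenesis genes were highest in NP 1, 14 in NP 2 and 3 in NP 3.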
